A study of Mus musculus with 6 samples.

Results

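The plasminogen activator system was described in NIH3T3 cells through 7 genes, which encode the activators Plau and Plat, the receptor Plaur and the serpins Serpine2, Serpinb2, Serpinf1 and Serpinh1. They were chosen by gene symbol from the 55401 genes of the count tables, and all 7 were found by their Ensembl identifiers. NIH3T3 is an immortalized line of mouse embryonic fibroblasts. There were 2 libraries of cells with empty vector and DMSO (EV), 1 library of cells with the TAZ-CAMTA1 fusion and DMSO (TC) and 3 libraries of TAZ-CAMTA1 cells with 10 μM aurintricarboxylic acid (ATA) for 48 h (TC + ATA). All cells were seeded 16 h before treatment, and no library of empty vector cells with ATA was analysed here. The methods describe the cells as stably expressing TC, and neither they nor the labels say whether a line is 1 clone or whether the libraries came from separate cultures, so p-values measure the spread between these libraries, which may be technical.

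Urokinase (Plau) and tissue-type plasminogen activator (Plat) are secreted serine proteases that cleave plasminogen to plasmin, which dissolves fibrin and degrades matrix. The receptor uPAR (Plaur), anchored in the membrane by a glycolipid, binds urokinase and holds its activity at the cell surface. Serpins are a large protein family in which most members trap a target protease by presenting a bait loop, and some have lost that activity. Fibroblasts use this system when they move through matrix and repair wounds.

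The promoters of Plaur and Serpine2 are shown because these genes had the largest fitted increase and decrease of the group in TC, that of Serpine2 lying within error of that of Plat. The sequences come from RefSeq on GRCm38.p6 and run 5′ to 3′ on the strand of the gene. They stop at the RefSeq start site or before the first GENCODE exon base in the window, whichever comes first. The Serpine2 stretch lies inside the longer GENCODE gene and holds 219 of the 250 bases before the RefSeq start site. Its GC boxes at 19 and 13 bases before that site are therefore not shown. Windows of 250 bases before and 50 bases after a start site were found for 5 of the 7 genes, and those of Plau and Plat were not. Capitals mark matches to an AP-1 motif (TGANTCA) or a GC box (GGGCGG), and neighbouring GC boxes can share bases.
Plaur, chr7:24462233-24462482, plus strand: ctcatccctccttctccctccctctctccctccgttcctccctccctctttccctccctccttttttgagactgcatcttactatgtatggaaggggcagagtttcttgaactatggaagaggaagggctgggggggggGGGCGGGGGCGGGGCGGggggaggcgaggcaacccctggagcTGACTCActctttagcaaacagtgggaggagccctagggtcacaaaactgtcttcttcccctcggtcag
Serpine2, chr1:79858697-79858915, minus strand: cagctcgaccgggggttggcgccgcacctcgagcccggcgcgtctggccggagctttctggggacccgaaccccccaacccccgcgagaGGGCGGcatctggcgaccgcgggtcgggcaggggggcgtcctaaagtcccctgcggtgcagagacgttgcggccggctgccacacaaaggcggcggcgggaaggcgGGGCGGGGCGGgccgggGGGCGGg
The AP-1 match of Plaur began 69 bases before the start site. Both windows of Serpinb2, a gene with at most 10 counts in any library, held an AP-1 match as well. These windows overlap, and the match is the same site in both. The windows of Serpine2, Serpinf1 and Serpinh1 held none. The motif was searched on both strands and occurred in 7.81% of all 32851 windows. The motif of TEAD, the DNA-binding partner of TAZ (GGAATG, both strands), was in 14.7% of all windows and in none of the windows of Plaur, Serpine2, Serpinb2, Serpinf1 and Serpinh1. That of heat shock factor (GAANNTTC, both strands) was in 7.86% of all windows and likewise in none of these. GC boxes, searched on both strands, were in 35.7% of all windows, among them those of Plaur, Serpine2 and Serpinh1. The Serpine2 stretch shown had a GC content of 77.6% and the Plaur stretch 59.6%.

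The library totals ran from 58471484 to 74413193 counts. Plau, Plat, Plaur, Serpinf1 and Serpinh1 had at least 1628 counts in every library. For these genes counting error is small, and precision is set by how few libraries there are. Counting error weighs more for Serpine2, with 246 counts in TC and 351 to 722 in the other libraries, and most for Serpinb2, with at most 10. The 2 EV libraries differed more from each other (chi-square of the counts per degree of freedom 46.2) than any pair of TC + ATA libraries did (at most 5.41). All 8 fibroblast markers fixed for the check (Col1a1, Col1a2, Col3a1, Vim, Thy1, Pdgfra, Pdgfrb and Fn1) were above 1 CPM (counts scaled by the TMM-adjusted library size) in every library, and their summed level, most of it from collagens and Vim, was between 14690 and 19380 CPM. Single markers moved apart beneath this sum. Thy1 had 204 and 183 CPM in EV, 69.6 CPM in TC and 79.8 to 86.0 CPM in TC + ATA. Pdgfra had 404 and 422 CPM in EV, 180.0 CPM in TC and 175 to 179 CPM in TC + ATA, whereas Col1a1, Col1a2 and Vim were higher in every TC-expressing library than in EV. Fn1 had 2992 and 2379 CPM in EV, 1516 CPM in TC and 2130 to 2258 CPM in TC + ATA. The part of such differences in the results on the 7 genes was not tested. The epithelial markers (Epcam, Cdh1, Krt8, Krt18 and Krt5) summed to at most 0.494 CPM and the endothelial markers (Pecam1, Cdh5, Kdr, Tie1 and Tek) to at most 3.75 CPM. The leukocyte markers (Ptprc, Cd68, Adgre1, Itgam and Cd3e) summed to between 2.83 and 8.54 CPM. In bulk samples, fewer cells of a type and less RNA per cell cannot be told apart.

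Relative to EV, Plaur was higher and Plat and Serpine2 were lower in TC, each by more than 2.5 times, whereas Serpinh1 and Plau were higher by smaller factors. Of the 7 genes, 6 passed the filter on low counts, and 3 of these were called up and 2 down in the TC versus EV comparison (edgeR's quasi-likelihood test, threshold 0.05 on the adjusted p). Over the 18539 genes of the fit, the calls amounted to 14.8% upward and 13.2% downward. With scaling by library size alone, which moved the median log2 fold change of all genes from −0.03 to −0.13, the calls over all genes were 2072 higher and 3160 lower in place of 2735 and 2456. Because TC has a single library, its spread was estimated from those of EV and TC + ATA. None of the genes had an absolute log2 fold change of 2, the size limit the study applied, which 2.36% of all genes passed upward and 1.27% downward.

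**Figure D1:**
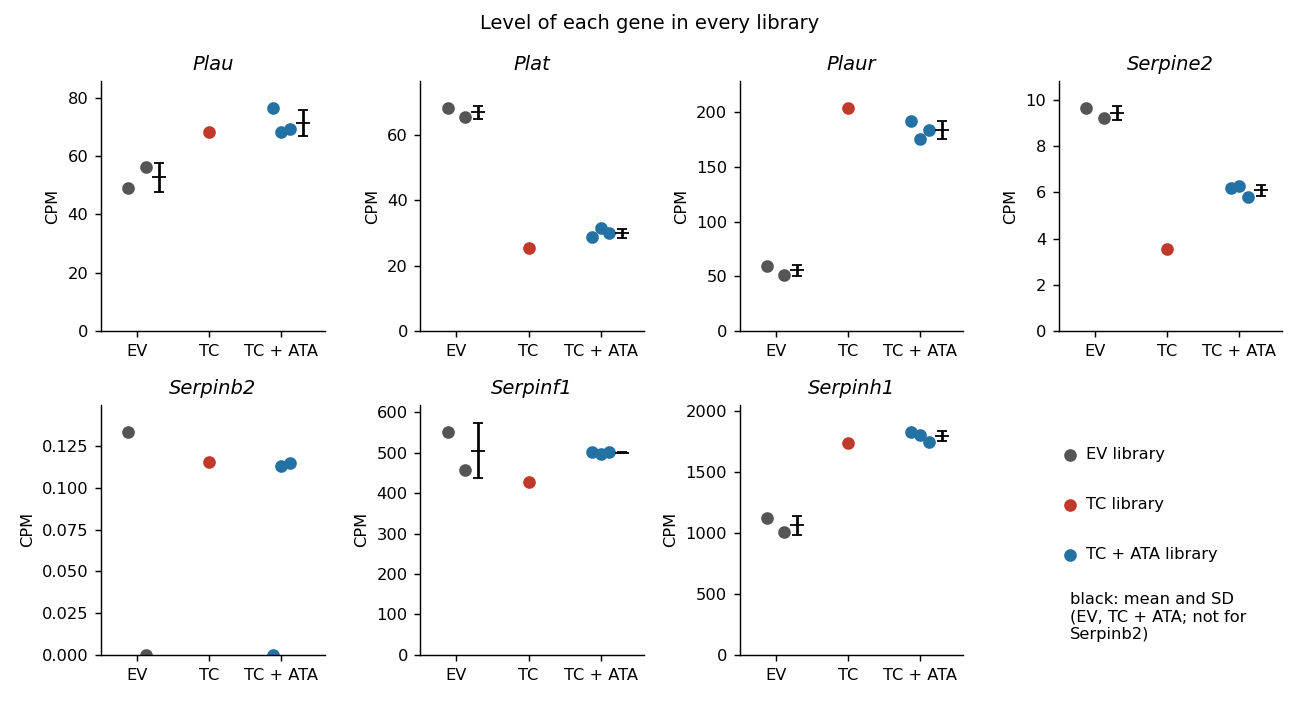
Level of each gene in CPM (vertical axes, from 0) in the 2 EV, 1 TC and 3 TC + ATA libraries, 1 point per library, with the mean and SD of EV and TC + ATA in black except for Serpinb2. Plaur lies at 59.4 CPM or below in EV and at 176 CPM or above in all TC-expressing libraries, and Serpine2 in TC + ATA lies between TC and EV.

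Plau encodes urokinase and lies on chromosome 14 from 20836660 to 20843385 (GRCm38, plus strand). It had 49.2 and 56.2 CPM in the EV libraries, 68.3 CPM in TC and 76.5, 68.4 and 69.3 CPM in TC + ATA. All 4 TC-expressing libraries lay above both EV libraries, as for 25.4% of all genes tested. In TC the level was 1.30 times that of EV, a log2 fold change of 0.37 (standard error, SE, 0.11, adjusted p = 0.0287 from edgeR). This was the least firm of the 5 calls. It was lost in 6 of the 13 alternative fits, and in 5 of these the log2 fold change stayed between 0.37 and 0.39. These were the fits with the TC + ATA libraries left out (adjusted p = 0.108 from edgeR and 0.252 from DESeq2), with a block on the replicate number (adjusted p = 0.119) and without TC + ATA replicate 2 or 3 (adjusted p = 0.0595 and 0.069 from edgeR). The other was scaling by library size (log2 fold change 0.26, adjusted p = 0.167 from edgeR).

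Plat encodes tissue-type plasminogen activator, the activator best known from blood vessels and the nervous system, and lies on chromosome 8 from 22757727 to 22782844 (plus strand). It had 68.2 and 65.4 CPM in EV, 25.4 CPM in TC and 28.6, 31.4 and 29.9 CPM in TC + ATA. Every TC-expressing library was below both EV libraries, as for 27.0% of all genes tested. TC was 2.63 times lower than EV, a log2 fold change of −1.39 (SE 0.10, adjusted p = 1.12e-05 from edgeR). This call held under each of the 13 alternative fits, with log2 fold changes from −1.50 to −1.38 (adjusted p at most 0.00025 from edgeR or DESeq2).

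The activators thus moved in opposite directions. The ratio of Plau to Plat counts per kilobase of exon, which does not depend on the scaling between libraries, was 1.90 and 2.27 in EV, 7.08 in TC and 7.04, 5.74 and 6.11 in TC + ATA. The ranges of EV and of the TC-expressing libraries did not overlap. The ratio was not tested.

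Plaur encodes the urokinase receptor and lies on chromosome 7 from 24462484 to 24475968 (plus strand). It had 59.4 and 51.8 CPM in EV, 204 CPM in TC and 192, 176 and 184 CPM in TC + ATA. The TC-expressing libraries were more than 2.5 times as high as either EV library. The increase in TC over EV was 3.67-fold, the largest of the group, with a log2 fold change of 1.88 (SE 0.10, adjusted p = 2.39e-06 from edgeR). It ranged from 1.77 to 1.97 over the 13 alternative fits and was called in each of them. Per kilobase of exon the receptor was level with its ligand in EV, with Plaur to Plau ratios of 1.09 and 0.833, and was above it in TC at 2.70 and in TC + ATA at 2.27, 2.32 and 2.40.

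**Figure D2:**
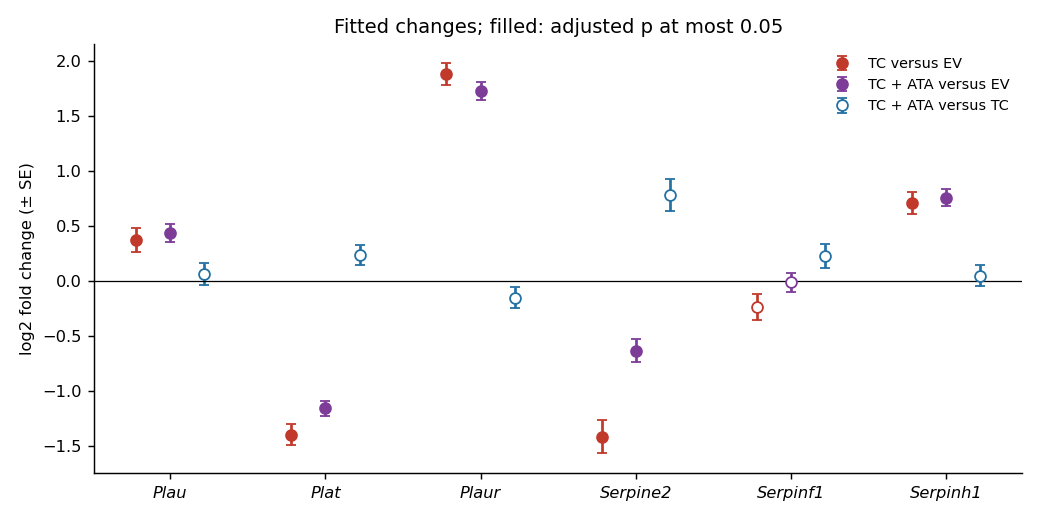
Log2 fold changes with standard errors (vertical axis) of the 6 tested genes in TC versus EV, TC + ATA versus EV and TC + ATA versus TC, with filled points for adjusted p-values of at most 0.05 from edgeR. The 5 filled points in TC versus EV have filled counterparts of the same sign in TC + ATA versus EV, and no point of TC + ATA versus TC is filled.

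Serpine2 encodes protease nexin-1, a secreted inhibitor of thrombin, urokinase and tissue-type activator, and lies on chromosome 1 from 79794197 to 79861180 (minus strand). It had 9.65 and 9.21 CPM in EV, 3.54 CPM in TC and 6.18, 6.28 and 5.81 CPM in TC + ATA. The 3 groups did not overlap, and TC + ATA lay between the others. Of all genes tested, 27.0% had every TC-expressing library below both EV libraries and 30.5% had every TC + ATA library above the TC library. Its level in TC was 2.66 times lower than in EV (log2 fold change −1.41, SE 0.15, adjusted p = 0.000165 from edgeR). The call held under all 13 alternative fits, with values from −1.52 to −1.39. In TC the gene rested on 246 counts.

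Serpinb2 encodes plasminogen activator inhibitor 2, which is found mostly inside cells such as macrophages and keratinocytes. It lies on chromosome 1 from 107511423 to 107535478 (plus strand), and 291 of its 2349 exon bases are shared with Serpinb10 on the same strand. The EV libraries held 10 and 0 counts, the TC library 8 and the TC + ATA libraries 0, 8 and 8. It did not pass the filter on low counts and was not tested. The exact 95% Poisson interval of the TC count was 3.45 to 15.8 and that of the EV count of 10 was 4.80 to 18.4, and that of the EV count of 0 reached up to 3.69 counts, or 0.0484 CPM. Within each replicated group a library with 0 counts stood beside libraries with 8 or 10, so a difference between groups was not detectable at this depth. These intervals cover counting error only and take each count as independent. All counts of this gene were even, and the sources used here do not say whether both reads of a pair were counted. If they were, the intervals are too narrow.

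Serpinf1 encodes pigment epithelium-derived factor (PEDF), a secreted serpin without inhibitory activity that is known for restraining blood vessel growth. It lies on chromosome 11 from 75409769 to 75422701 (minus strand). It had 552 and 456 CPM in EV, 428 CPM in TC and 502, 498 and 501 CPM in TC + ATA. The TC library was below all others, but by less than the distance between the EV libraries, and the TC + ATA libraries lay between the EV libraries. Between TC and EV the log2 fold change was −0.24 (SE 0.12, 95% interval −0.50 to 0.03, adjusted p = 0.173 from edgeR). The size of this difference depended on the EV libraries, being −0.11 without EV replicate 1 and −0.37 without EV replicate 2. In both of these fits the spread came from the TC + ATA libraries alone, which lay much closer together than the EV libraries. With scaling by library size the difference was −0.34 (adjusted p = 0.0167 from edgeR).

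Serpinh1 encodes HSP47, a chaperone of the endoplasmic reticulum that binds procollagen and has no protease target. It lies on chromosome 7 from 99345376 to 99353239 (minus strand). It had 1117 and 1005 CPM in EV, 1732 CPM in TC and 1828, 1802 and 1745 CPM in TC + ATA. All TC-expressing libraries were above both EV libraries, as for 25.4% of all genes tested. This amounted to 1.63 times the EV level in TC, with a log2 fold change of 0.71 (SE 0.10, adjusted p = 0.000902 from edgeR). It was called in 12 of the 13 alternative fits and missed in the edgeR fit that left out the TC + ATA libraries (adjusted p = 0.0631). Its ratio to the collagen gene Col1a1 per kilobase of exon was 0.926 and 0.968 in EV, 1.07 in TC and 1.18, 1.19 and 1.22 in TC + ATA. Its ratio to Col1a2 was 1.01 and 0.997 in EV, 1.33 in TC and 1.29, 1.27 and 1.29 in TC + ATA. Both ratios were higher in all TC-expressing libraries than in EV, while TC was below TC + ATA for Col1a1 and above it for Col1a2.

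**Figure D3:**
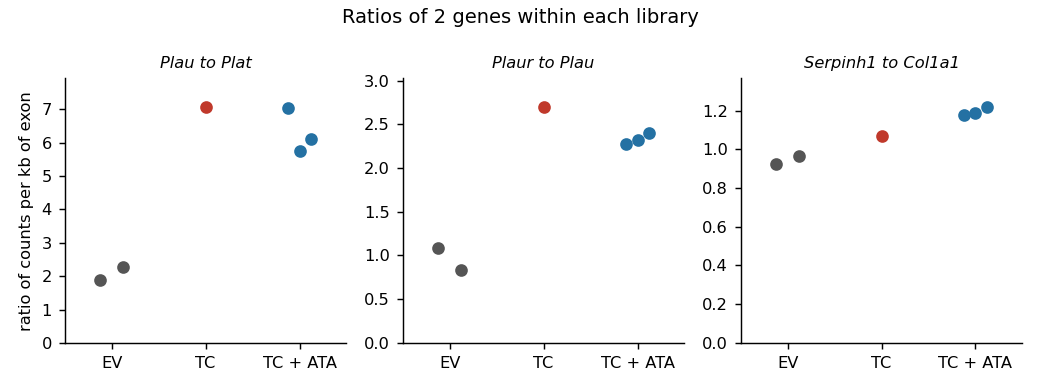
Ratios of the counts per kilobase of exon of 2 genes within each library (vertical axes, from 0), 1 point per library, for the EV (grey), TC (red) and TC + ATA (blue) libraries. Plau to Plat is at most 2.27 in EV and at least 5.74 in the TC-expressing libraries, Plaur to Plau is highest in TC, and Serpinh1 to Col1a1 lies between 0.926 and 1.22.

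The levels of the genes per kilobase of exon spanned a wide range within each group. In EV the order was Serpinh1 with 434 ± 32.4 CPM per kilobase (SD, n = 2), Serpinf1 with 214 ± 28.8, Plau with 22.3 ± 2.11, Plaur with 21.2 ± 2.04, Plat with 10.7 ± 0.312, Serpine2 with 1.14 ± 0.0381 and Serpinb2 with 0.0285 ± 0.0402. Only Plau and Plaur were neighbours that did not differ beyond their spread. In TC + ATA the order was Serpinh1 with 733 ± 17.6 CPM per kilobase (SD, n = 3), Serpinf1 with 212 ± 0.957, Plaur with 70.3 ± 3.17, Plau with 30.2 ± 1.88, Plat with 4.80 ± 0.221, Serpine2 with 0.735 ± 0.0297 and Serpinb2 with 0.0323 ± 0.0280, and no neighbours overlapped. The single TC library had the same order.

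TC + ATA was compared with TC to ask what ATA changed in cells that carry the fusion. None of the 6 tested genes was called in either direction by edgeR, against 0.426% of all genes called higher and 0.156% lower. At an unadjusted p under 0.05, 2 of them were higher (Plat and Serpine2) and 0 lower. DESeq2 with all libraries called Serpine2 higher, and DESeq2 without the EV libraries called Serpine2 and Serpinf1 higher and Plaur lower. Over all genes, those fits called 236 and 720 higher and 84 and 726 lower, in place of 79 and 29 by edgeR. Without EV replicate 1 or 2, edgeR gave log2 fold changes of 0.778 and 0.791 for Serpine2 and of 0.225 and 0.238 for Serpinf1. These edgeR fits also called many more of all genes than the fit with all libraries.

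Serpine2 had the largest difference between TC + ATA and TC, from 3.54 CPM to 6.09 ± 0.246 CPM (SD, n = 3). Its log2 fold change was 0.78 (standard error 0.15, 95% interval 0.45 to 1.11), a level 1.72 times that of TC, with all 3 TC + ATA libraries above the TC library, as for 30.5% of all genes tested. The adjusted p was 0.0615 from edgeR and ran from 0.00595 to 0.277 over the 13 alternative fits in edgeR or DESeq2, passing 0.05 in 6 of them. The passing fits were both DESeq2 fits, edgeR with only the groups compared, without a filter, and without EV replicate 1 or 2. In the fits with only the groups compared or with 1 EV library, the spread came from the 3 TC + ATA libraries alone. Those libraries differed least from each other, so these fits are not separate support. Without TC + ATA replicates 1, 2 and 3 the adjusted p was 0.227, 0.257 and 0.219 from edgeR.

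Plat had a log2 fold change of 0.24 in TC + ATA versus TC (95% interval 0.04 to 0.44, unadjusted p = 0.0244 and adjusted p = 0.415 from edgeR), and no alternative fit called it. Plaur had −0.15 (95% interval −0.37 to 0.06, adjusted p = 0.678 from edgeR), with all 3 TC + ATA libraries below the TC library, as for 32.7% of all genes tested. The intervals of Plau, from −0.17 to 0.30, and of Serpinh1, from −0.17 to 0.27, left room for changes of less than 1.3 times in either direction. Serpinf1 had 0.23 (95% interval −0.03 to 0.48, adjusted p = 0.574 from edgeR). It was called higher in 4 of the 13 alternative fits, all of which left out at least 1 EV library. In those fits the spread came from the 3 TC + ATA libraries alone.

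TC + ATA versus EV shares its EV libraries with TC versus EV, and its values are given beside them as a second reading and not as independent support. Plaur had a log2 fold change of 1.73, Serpinh1 of 0.76 and Plau of 0.44 (adjusted p = 6.76e-07, 9.31e-05 and 0.00274 from edgeR). Plat had −1.16 and Serpine2 −0.63 (adjusted p = 2.21e-06 and 0.0014 from edgeR). These 3 increases and 2 decreases stand against 18.0% of all genes called higher and 18.6% lower, and each was called under all 13 alternative fits. None had an absolute log2 fold change of 2, which 2.80% of all genes passed upward and 1.06% downward. With scaling by library size, the calls over all genes were 2711 higher and 4384 lower in place of 3340 and 3449. Serpinf1 had −0.01 (95% interval −0.21 to 0.18). This was 0.12 without EV replicate 1 and −0.13 without EV replicate 2, where the spread came from the TC + ATA libraries alone.

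Of the other 64 serpin genes in the tables, 25 had no counts in any library and 21 passed the filter. In TC versus EV, 11 of the 21 were called higher and 1 lower, against 14.8% and 13.2% of all genes. Several had passed through the TC-expressing libraries alone, so that this count is a description and no support for a direction. With at least 5 CPM required in 1 library, 5 were called higher, and DESeq2 with the TC + ATA libraries left out called 4. Serpinb9b, an intracellular serpin of clade B, had 1.18 and 0.826 CPM in EV, 75.7 CPM in TC and 89.5, 85.1 and 81.4 CPM in TC + ATA (log2 fold change 6.24, adjusted p = 5.72e-08 from edgeR). Serpinb6a had 0.58 and Serpinb8 −0.70 (adjusted p = 0.00493 and 0.0234 from edgeR), both from the same clade. Serpinb8 was the 1 lower call, and it was lost with the replicate block (adjusted p = 0.0807 from edgeR) and with the TC + ATA libraries left out (adjusted p = 0.061 from edgeR and 0.198 from DESeq2). The Serpinb9 and Serpinb6 genes form clusters of similar copies, between which reads may have been shared. For TC + ATA versus TC, edgeR called 0 of the 21 in either direction, with 4 higher and 2 lower at an unadjusted p under 0.05. DESeq2 with all libraries called 2 higher and 1 lower, and with only the groups compared 3 higher and 1 lower. Over all genes, those fits called 236 and 720 higher and 84 and 726 lower. In TC + ATA relative to EV, 10 of the 21 were called higher and 0 lower (11 and 1 at an unadjusted p under 0.05, and 0 lower by DESeq2). Among them was Serpinb9 with 1.09 (adjusted p = 3.21e-05 from edgeR). Of all genes, 18.0% were called higher and 18.6% lower.

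The fibrinolysis list held 41 genes for plasminogen, its receptors, uptake receptors, partner integrins, activating proteases and coagulation proteins, and 29 were tested. Plg, the substrate of both activators, had no counts in any library, nor did the fibrinogen genes Fgg and Fgb. In TC versus EV, 10 of the 29 were called higher and 3 lower, against 14.8% and 13.2% of all genes. The median log2 fold change of the list was 0.29 against −0.03 over all genes. The number lower was 5 without EV replicate 1, 6 without EV replicate 2 and 2 without TC + ATA replicate 2. The integrin subunits Itga3, which forms a laminin receptor that can bind uPAR, and Itgav, of the vitronectin receptors, had log2 fold changes of 3.08 and 1.08 (adjusted p = 2.67e-07 and 3.22e-05 from edgeR). Among the beta subunits of the list, Itgb5 and Itgb3, which pair with Itgav in vitronectin receptors, were lower. They had −0.99 and −0.70 (adjusted p = 8.01e-05 and 0.0277 from edgeR). The beta subunit Itgb1 was higher at 0.895 (adjusted p = 0.000105 from edgeR), and all of these were named after their values were seen. The call of Itgb5 held in all 13 alternative fits and that of Itgb3 in 9, being lost with the TC + ATA libraries left out (adjusted p = 0.0634 from edgeR and 0.204 from DESeq2), with the replicate block (0.0983 from edgeR) and without TC + ATA replicate 2 (0.0529 from edgeR). Eno1, a glycolytic enzyme that also serves as a plasminogen receptor at the cell surface, had 1.22 (adjusted p = 0.000234 from edgeR), but near-identical copies of it exist and may have taken or lent reads. Hgf, a growth factor whose precursor urokinase can cleave, had 3.30 CPM in TC against 20.2 ± 2.44 CPM (SD, n = 2) in EV (log2 fold change −2.62, adjusted p = 7.34e-06 from edgeR).

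In TC + ATA versus TC, 1 gene of the fibrinolysis list was called higher and 0 lower (4 and 3 at an unadjusted p under 0.05 in edgeR, and 4 and 5 by DESeq2 with only the groups compared). Over all genes, DESeq2 with only the groups compared called 720 higher and 726 lower. Without EV replicate 1 or 2, edgeR called more of the list, and also more of all genes. The gene called from all libraries was F3, tissue factor, the starter of coagulation. F3 had 61.6 and 72.0 CPM in EV, 81.5 CPM in TC and 129.7, 138 and 133 CPM in TC + ATA. The TC + ATA libraries lay above all others, and 30.5% of all genes tested had every TC + ATA library above the TC library. Against TC, the log2 fold change of F3 was 0.71 (SE 0.10, adjusted p = 0.0198 from edgeR). The call was lost without TC + ATA replicate 1, 2 or 3 (adjusted p = 0.0927, 0.14 and 0.155 from edgeR), with the replicate block (adjusted p = 0.148 from edgeR) and with scaling by library size (adjusted p = 0.0622 from edgeR). In TC + ATA versus EV, 14 genes of the list were called higher and 4 lower (2 lower without any 1 of the TC + ATA replicates), with F3 at 1.00 and Hgf at −2.98 (adjusted p = 1.56e-05 and 2.27e-07 from edgeR). Of all genes, 18.0% were called higher and 18.6% lower.

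All 17 genes of the HSP47 partner list were tested. The list held procollagens, enzymes and chaperones that modify and fold them, and also the heat shock factor gene Hsf1 and Mia3. In TC versus EV, 6 of the 17 were called higher and 1 lower, against 14.8% and 13.2% of all genes. The median log2 fold change was 0.23, against −0.03 over all genes. The prolyl 4-hydroxylase subunits P4ha1 and P4ha3 had 0.69 each and the peptidyl-prolyl isomerase Fkbp10 had 0.68, close to the 0.71 of Serpinh1 (adjusted p = 0.000809, 0.000218 and 0.000792 from edgeR). Fkbp14, of the same isomerase family, was lower at −0.56 (adjusted p = 0.00758 from edgeR), a call that held in 12 of the 13 alternative fits. It had 30.7 and 26.0 CPM in EV, 19.2 CPM in TC and 27.0, 27.1 and 25.7 CPM in TC + ATA. The lower level was thus that of the single TC library, and TC + ATA versus EV gave −0.09 (adjusted p = 0.458 from edgeR). With the TC + ATA libraries left out, the number called higher was 3 by edgeR and 5 by DESeq2. In edgeR it was 3 with the replicate block, and it was 12 without EV replicate 1 and 10 without EV replicate 2. Between TC + ATA and TC, edgeR called 0 of the 17 in either direction, with 3 higher and 0 lower at an unadjusted p under 0.05. DESeq2 with only the groups compared called 8 higher and 1 lower. Over all genes that fit called 720 higher and 726 lower, in place of 79 and 29 by edgeR with all libraries. Without EV replicate 1 or 2, edgeR called more of the list higher, and also more of all genes. In TC + ATA versus EV, 11 of the 17 were higher and 0 lower by edgeR, against 18.0% and 18.6% of all genes. At an unadjusted p under 0.05 these were 12 and 1, and DESeq2 called 1 lower. Col5a1 had 0.56 (adjusted p = 0.000169 from edgeR). The number higher was 7 without TC + ATA replicate 1 or 2 and with the replicate block.

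Of the 5 genes for reported PEDF receptors, all tested, only Pnpla2 was called. Pnpla2, which encodes a triglyceride lipase, had 15.1 and 13.8 CPM in EV, 30.7 CPM in TC and 30.8, 30.0 and 27.7 CPM in TC + ATA. Between TC and EV its log2 fold change was 1.09 (adjusted p = 8.21e-05 from edgeR). With ATA, relative to TC, 0 of the 5 had even an unadjusted p under 0.05 in edgeR, and DESeq2 called 0. Without EV replicate 1, edgeR called 2 of them higher for TC against EV and 3 for TC + ATA against EV, and without EV replicate 2 it called 1 lower in each.

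**Figure D4:**
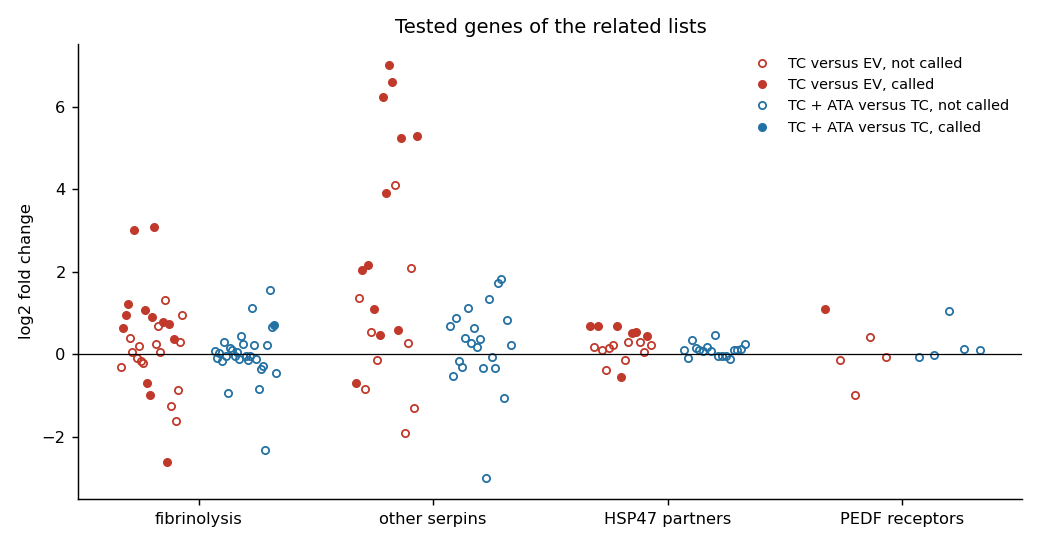
Log2 fold changes (vertical axis) of the tested genes of the fibrinolysis, other serpin, HSP47 partner and PEDF receptor lists, in TC versus EV (red) and TC + ATA versus TC (blue), with filled points for adjusted p-values of at most 0.05 from edgeR. The other serpins reach values above 6 in TC versus EV, and F3 is the only filled blue point.

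For the 3 genes with the largest change in TC versus EV, the genes with the most similar pattern over the 6 libraries were listed, by the root mean square difference of mean-centred log2 CPM among 10423 other genes with a mean of at least 5 CPM. For Plaur these were Pla2g16 and Tent5b, with differences of 0.0285 and 0.0446. Pla2g16, a phospholipase, had 16.9 and 14.3 CPM in EV, 59.5 CPM in TC and 55.5, 51.4 and 51.6 CPM in TC + ATA. For Serpine2 they were 4930523C07Rik and Lxn, a carboxypeptidase inhibitor, with differences of 0.0458 and 0.0599. Lxn had 27.0 and 25.2 CPM in EV, 9.38 CPM in TC and 15.2, 16.3 and 15.2 CPM in TC + ATA, and so also had TC + ATA between TC and EV. For Plat, the most similar gene was Clybl, with a difference of 0.0427.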

How the data were processed

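Bulk RNA-Seq was analysed in 6 libraries (EV 2, TC 1, TC + ATA 3), grouped by the sample titles. The authors prepared poly(A)-selected libraries, aligned paired-end reads to GRCm38.p6 (mm10) with HISAT2 2.2.1 (version from the submitters' processing notes) and counted them with featureCounts. Raw, unnormalized counts per gene were deposited. The annotation release, the use of strand and the treatment of reads matching several genes are not given in the sources used here, so similar genes can have shared or lost reads. Symbols, positions and exon lengths came from GENCODE M21 (55141 of 55401 identifiers matched).

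From these counts, edgeR 4.0.16 in R 4.3.3 was run with TMM normalization, filterByExpr, glmQLFit and glmQLFTest on all 6 libraries in one fit, with Benjamini-Hochberg adjustment over 18539 genes and a limit of 0.05. The design has 3 residual degrees of freedom. Standard errors came from the F statistic and intervals from its total degrees of freedom. The study used DESeq2, which served here as an alternative (1.42.0). The others were fits with only the groups compared, library size or upper quartile scaling, no filter or at least 5 CPM in 1 library, a replicate block, an added fold limit (log2 fold change of 2), and each EV and TC + ATA library left out. The fit was first tested on simulated data.

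The 7 genes and all lists were chosen with earlier results of these data known. Genes named beside the 7 are up to 4 called genes per list and comparison with the largest change and a mean of at least 5 CPM, and the 2 genes most similar in pattern to each of 3 genes. Some genes that this rule chose are not reported here. Values of a named gene in comparisons where the rule did not choose it are given only in part. Plg, Fgg and Fgb, at 0 counts, Itgb1, Itgb3, Itgb5 and the ratios of Serpinh1 to Col1a1 and Col1a2 were chosen after their values were seen.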

Additional observations from a re-analysis of the deposited data

How the results depend on the processing

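Under the alternative fits, 209 log2 fold changes of the 6 tested genes kept their direction and side of the threshold, 15 passed it in addition, 7 lost it and 3 changed sign. In TC versus EV, 1 gene in place of 3 was called higher by edgeR on the groups compared alone. A fold limit of 2 on the log2 scale left 0 higher and 0 lower, for TC versus EV and for TC + ATA versus EV. In TC + ATA versus TC, where 0 genes were called, 1 was higher with DESeq2 on all libraries and 1 without a filter. On the groups compared alone, 2 were higher by DESeq2 and by edgeR, and 1 lower by DESeq2. With each replicate left out in turn, 0 to 2 were higher in TC + ATA versus TC, 2 to 3 higher and 2 to 3 lower in TC versus EV, and 3 to 4 higher and 2 to 3 lower in TC + ATA versus EV. Serpinf1, at −0.01 in TC + ATA versus EV, was 0.003 with DESeq2 on all libraries, 0.017 with at least 5 CPM required, and between −0.133 and 0.12 with 1 replicate left out. Values near 0 also changed sign for Serpinb6a (0.004) and Pnpla2 (0.029) in TC + ATA versus TC with the replicate block. In TC + ATA versus EV, Serpinb8 became 0.012 with at least 5 CPM required, 0.052 with the block, and −0.123 to 0.059 with 1 replicate left out (0.012 without TC + ATA replicate 1), and Fkbp14 ran from −0.195 to 0.021. The causes of these shifts were not tested. Over all genes, leaving out either EV replicate raised the number of calls in both directions in every comparison.

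Replicate numbers 1 and 2 occur in both EV and TC + ATA. Their deviations from the group means did not move together (correlations across genes −0.029 and −0.0861). With only 2 EV libraries their deviations mirror each other, and the single TC library has none. These values therefore cannot decide whether libraries with the same number were handled together. The block on that number gave 2 higher and 2 lower genes for TC against EV, 0 and 0 for TC + ATA against TC, and 3 and 2 for TC + ATA against EV. A single TC library limits every comparison with TC. List genes and list counts were recomputed under the same alternatives, a step chosen after seeing the data.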
